A study of Mus musculus with 4 samples.

Results

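The genes described here are the AP-1 family of transcription factors with its relatives Batf, Atf3 and Maff, in mouse mammary tumour cells that overexpress a microRNA cluster. The 10 members were taken by name: Fos, Fosb, Fosl1 and Fosl2, Jun, Junb and Jund, and Batf, Atf3 and Maff. All 10 were found, through the RefSeq accession of each probe, among 27670 gene names on the array. They were read by 12 probes on 30 spots per array, and all 10 were among the 20498 genes tested. 4TO7 is a mammary tumour line of strain BALB/cfC3H. The control group of 2 arrays came from 4TO7 cells stably carrying the retroviral vector pMSCV-puro, and the other group of 2 arrays from 4TO7 cells stably carrying pMSCV-miR-23b/27b/24. The series counts the 2 arrays of a group as biological replicates from separate transfections. What else sets the transfected cells of the groups apart cannot be told apart from the cluster, and p-values measure the spread between these arrays. Cell RNA carried Cy5, and the common reference on every array, Universal Mouse Reference RNA pooled from 11 lines, carried Cy3.

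AP-1 is a dimer of basic leucine zipper proteins. Jun proteins pair with each other or with Fos proteins, whereas Fos proteins need a Jun partner. The dimers bind the TPA response element, TGANTCA with C or G at N. Fos, Fosb, Jun, Junb and Atf3 are early response genes that growth factors and stress induce within minutes through MAP kinases, and Fosl1 (Fra-1) and Fosl2 (Fra-2) follow later. Batf and Maff are short factors that dimerise but carry no activation domain.

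The cluster encodes miR-23b, miR-27b and miR-24, and 2 of its mature strands are shown because the second group is labelled as overexpressing them. Capitals mark the seed, bases 2 to 8, and both sequences are from RefSeq on build GRCm38.p6, chromosome 13, plus strand. No probe of a member held a match to either seed, which says only that these letters are not in those 60 bases; the rest of the transcripts was not examined.
miR-27b-3p, chr13:63300760-63300780: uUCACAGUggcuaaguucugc
miR-24-3p, chr13:63301251-63301272: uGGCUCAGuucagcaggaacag

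Several members are known to be transcribed through cyclic AMP or AP-1 type elements near their own start, so their promoters were searched. RefSeq promoters (250 bases before to 50 after the start, GRCm38.p6) were at hand for 9 members, and not for Fosl1. The search took any base at N of TGANTCA, which is wider than the element. On both strands, this pattern was found in 0 of the 11 promoters of these 9 genes (Maff has 3) and in 7.81% of all 32851 promoters. The core TGACGT, which TGACGTCA contains, was found for Fos, Batf, Atf3 and Maff, and in 7.51% of all promoters. TGACGTCA was found for Maff, against 1.79%, and TGACATCA for Jun and Maff, against 3.62%. TGACGT was chosen after the sequences were seen, and a match is a description, not a binding site. The 120 bases before the start are given for 4 members, 5′ to 3′ on the gene's strand, with the match in capitals (on the opposite strand in Atf3).
Fos, chr12:85473770-85473889, plus strand: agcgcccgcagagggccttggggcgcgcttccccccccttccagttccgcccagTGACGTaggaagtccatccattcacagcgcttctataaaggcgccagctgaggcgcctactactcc
Batf, chr12:85686600-85686719, plus strand: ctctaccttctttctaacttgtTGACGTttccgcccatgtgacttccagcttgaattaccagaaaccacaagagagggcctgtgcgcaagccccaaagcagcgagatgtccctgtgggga
Atf3, chr1:191183334-191183453, minus strand: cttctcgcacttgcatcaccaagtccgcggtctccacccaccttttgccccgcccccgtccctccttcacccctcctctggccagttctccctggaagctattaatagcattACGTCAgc
Jun, chr4:95052223-95052342, minus strand: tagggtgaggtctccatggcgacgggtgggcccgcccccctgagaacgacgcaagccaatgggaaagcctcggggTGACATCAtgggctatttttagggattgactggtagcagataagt

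Across the series, the share of the 41174 gene probes with a Cy5 signal well above background ran from 69.8% to 74.8% per array, and the log2 ratios correlated across genes at 0.887 between the vector arrays and 0.952 between the miR-23b/27b/24 arrays. The 4 arrays lie on 1 slide, and their number limits the precision. The array reads no mature microRNA. Aopep, which hosts the cluster, differed by -0.63 ± 0.28 (SE, log2, adjusted p = 0.228), and its other kept probe by -0.04 (adjusted p = 0.913 in the fit over probes). Of 8 mammary epithelial markers examined to check the line, all 8 were well above background on both arrays of each group, and 5 fell in the cells with the cluster (3 without miR-23b/27b/24 replicate 1). Epcam was 12.2-fold lower and Krt7 22.5-fold lower, while Krt8 differed by 0.30 ± 0.31 (SE, log2). The Cy5 signals of the 8 summed to 431800 and 241000 in the vector cells and 108600 and 139100 in the others. Of 6 fibroblast markers and 2 tested endothelial markers 0 were called by limma, with 2 fibroblast markers higher at an unadjusted p under 0.05. Whether the shift in epithelial markers has a part in the results on AP-1 genes was not tested.

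Batf, Fos and Fosl1 rose in the miR-23b/27b/24 cells, and none of the 10 members passed the test in the other direction. The 3 members called are to be read against 9.42% of all genes called in either direction, 4.78% higher and 4.64% lower (limma, adjusted p under 0.05 over all 20498 genes). At an unadjusted p under 0.05, 5 members were higher and 2 lower, against 27.7% of all genes, 14.6% higher and 13.1% lower. Batf passed the filter on dim probes only through the miR-23b/27b/24 arrays, where it is high; with Cy5 required well above background on all 4 arrays it has no value, and the 2 members called stand beside 9.21% of 18781 genes. Leaving out 1 array at a time, the share of all genes called was 22.4% without vector replicate 1, 13.3% without vector replicate 2, and 1.04% and 1.15% without miR-23b/27b/24 replicates 1 and 2, and counts from these fits are to be read against those shares. The median log2 difference of the members was 0.22, against -0.03 over all genes. The groups' arrays did not overlap for 7 members, a share near the 59.8% of all genes, with the cluster cells above in 5 of them and below in 2. Where local backgrounds marked as outliers were kept as measured, 1 member (Fosl1) was called, against 3.10% of all genes. Values below are log2 ratios of cells over reference unless a signal is named, a difference is miR-23b/27b/24 minus vector, and n = 2 arrays per group throughout. In RNA of whole cultures, more cells with a transcript and more of it per cell cannot be told apart.

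**Figure D1:**
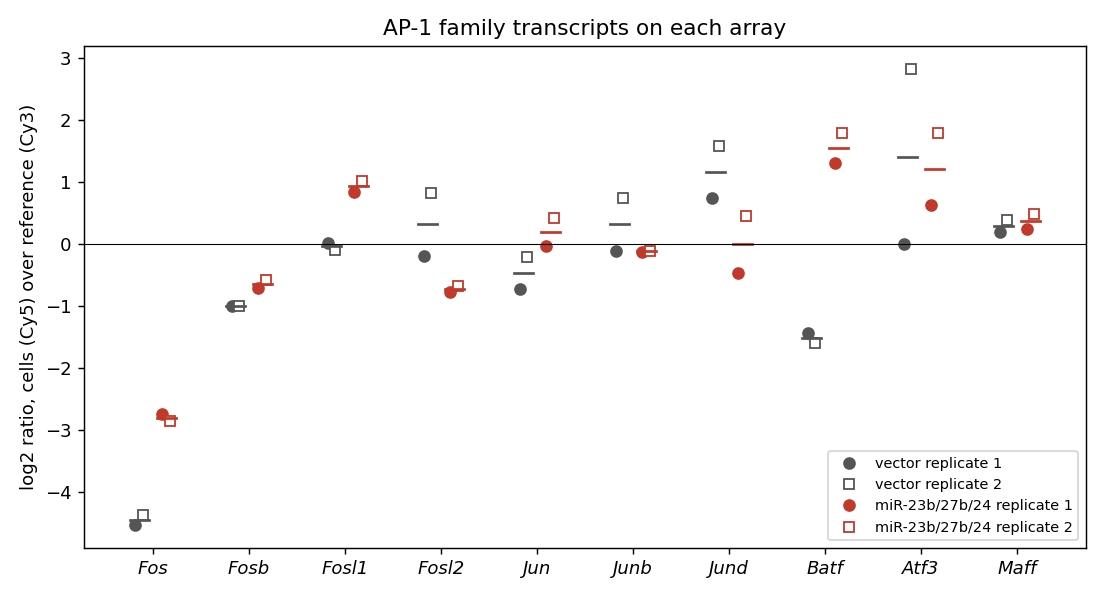
Log2 ratio of cells (Cy5) over reference RNA (Cy3) of the 10 members, with a point for each of the 4 arrays and a bar at the mean of each group. For Batf, Fos, Fosl1 and Fosb the nearest arrays of the groups lie farther apart than the arrays within either group, though Fosb was not called. The vector arrays of Atf3 lie at -0.01 and 2.83.

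Fos, the founding partner of Jun, was far below the reference in all 4 samples and less so in the cells with the cluster. Its log2 ratios were -4.52 and -4.37 on the vector arrays and -2.74 and -2.85 on the miR-23b/27b/24 arrays. The groups were clearly apart, with 0.16 between the vector arrays and 0.11 between the others. The difference was 1.65 ± 0.13 (SE, adjusted p = 0.00644), a 3.14-fold rise. The Fos probe (chromosome 12, 83478431 to 83478490, mm7) is printed on 10 spots, which allows the error within an array to be seen. Between 9 and 10 spots per array were used, and their SD was between 0.025 and 0.052, so the spots of one group did not reach those of the other: the highest vector spot was at -4.30 and the lowest miR-23b/27b/24 spot at -2.89. In mean signal, Cy5 went from 415 and 397 on the vector arrays to 1337 and 1242, while the reference in Cy3 lay between 9927 and 11741. The rise depended on the background step: with backgrounds kept as measured it was 1.02 (adjusted p = 0.137). Without miR-23b/27b/24 replicate 1 or 2 it was 1.60 or 1.71, with adjusted p = 0.071 and 0.0623.

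Fosl1, which encodes Fra-1, a Fos protein linked to invasion of mammary tumour cells, rose as well. Its log2 ratios were 0.02 and -0.09 on the vector arrays and 0.85 and 1.02 on the miR-23b/27b/24 arrays, so the vector cells stood near the reference and the others above it. The difference was 0.97 ± 0.13 (SE, adjusted p = 0.0228), a 1.95-fold rise. Its Cy5 signal was 2195 and 1708 in the vector cells and 3642 and 4345 in the others, by a probe on chromosome 19 from 5350302 to 5350361 (mm7). The call held with backgrounds kept as measured (0.97, adjusted p = 0.0459) and was lost without miR-23b/27b/24 replicate 1 or 2 (adjusted p = 0.141 and 0.154).

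Fosb, an early response gene like Fos, and Fosl2, which encodes Fra-2, did not pass. The log2 ratio of Fosb was -1.0 on both vector arrays and -0.71 and -0.57 with the cluster. The groups were apart, and the difference was 0.36 ± 0.12 (SE, adjusted p = 0.143), or 0.04 with backgrounds kept as measured. Fosl2 ran the other way, with -0.19 and 0.83 on the vector arrays and -0.77 and -0.68 on the miR-23b/27b/24 arrays. Its vector arrays stood 2.02-fold apart, a gap that 3.31% of genes exceeded. The difference was -1.04 ± 0.35 (SE, adjusted p = 0.138). Leaving out vector replicate 1 gave -1.55, and leaving out vector replicate 2 gave -0.54. The other Fosl2 probe starts 4536 bases upstream and is dimmer, with 191 and 186 in Cy5 for the vector cells against 105 and 127. Its vector arrays stood close together, at 0.19 and 0.12, and its difference was -0.50 ± 0.12 (SE, adjusted p = 0.0704 in the fit of 30035 probes, of which 9.86% were called).

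Batf, known from lymphocytes, where its dimers with Jun proteins act with Irf4 and Irf8, was near background in the vector cells and well above it in the others. In the vector cells its Cy5 signal was 54.2 and 50.6 over a local background of 34, and the probe was not well above background on either array. In the miR-23b/27b/24 cells the signal was 472 and 685 over a background of 32. The signal was thus 1.59 and 1.49 times the local background on the vector arrays, and 14.8 and 21.4 times on the others. The reference channel was level, with Cy3 signals between 205 and 221. The log2 ratios were -1.42 and -1.59 on the vector arrays and 1.31 and 1.79 on the miR-23b/27b/24 arrays, so the cells went from below the reference to above it. The fitted difference was 3.06 ± 0.20 (SE, adjusted p = 0.00464). The vector cells give only an upper limit of the level. In Cy5 alone the group means stood 8.26-fold apart under this processing, a value that is not divided by the reference signal. It is an estimate and not a lower bound, since it leaves out the spread between arrays. The 95% interval of the fitted difference ran from 2.54 to 3.58 (log2). Settings moved the rise both ways. The fitted value was 7.05-fold without miR-23b/27b/24 replicate 2 and 4.46-fold with backgrounds kept as measured. It was 47.8-fold with signals processed by Feature Extraction and then loess. The processing of the text adds an offset of 50 to signals after background correction, and its part in the size of the rise was not tested.

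Batf was called without any one of the arrays, with differences between 2.82 and 3.30. Its miR-23b/27b/24 arrays stood 0.48 apart, more than the median gap of 0.13 over all genes in that group. With backgrounds kept as measured the difference was 2.16 (adjusted p = 0.0669). Signals processed by Feature Extraction and then loess gave 5.58, and the log ratio of that program gave 5.56. The single Batf probe lies on chromosome 12 from 83710402 to 83710460 (mm7). Leukocyte markers were examined beside it: 10 of 11 were well above background on both arrays of each group, and Itgam was not. By limma 0 of these 10 were called, with 1 higher and 0 lower at an unadjusted p under 0.05. The 1 higher was Cd3g, a chain of the T cell receptor complex, with Cy5 signals of 111.8 and 112.3 in the vector cells and 187.7 and 320.2 in the others (log2 difference 0.96 ± 0.25, SE, adjusted p = 0.0816). The Cy5 signals of the 11 markers summed to 2664 and 2718 in the vector cells and to 2579 and 2741 in the others, and their part in the Batf result was not tested. Ptprc, the leukocyte surface protein CD45, had Cy5 signals of 78.7 and 74.2 in the vector cells and 76.3 and 79.9 in the others, and Cd3e differed by 0.02 (log2). Irf8, at 0.82 and 0.10 on the vector arrays and 1.54 and 1.45 on the others, differed by 1.03 ± 0.26 (SE, adjusted p = 0.0774), and Irf4 by -0.37 ± 0.22 (SE, adjusted p = 0.347). A dimmer Irf8 probe passed in the fit over probes, with 0.81 (adjusted p = 0.0417).

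**Figure D2:**
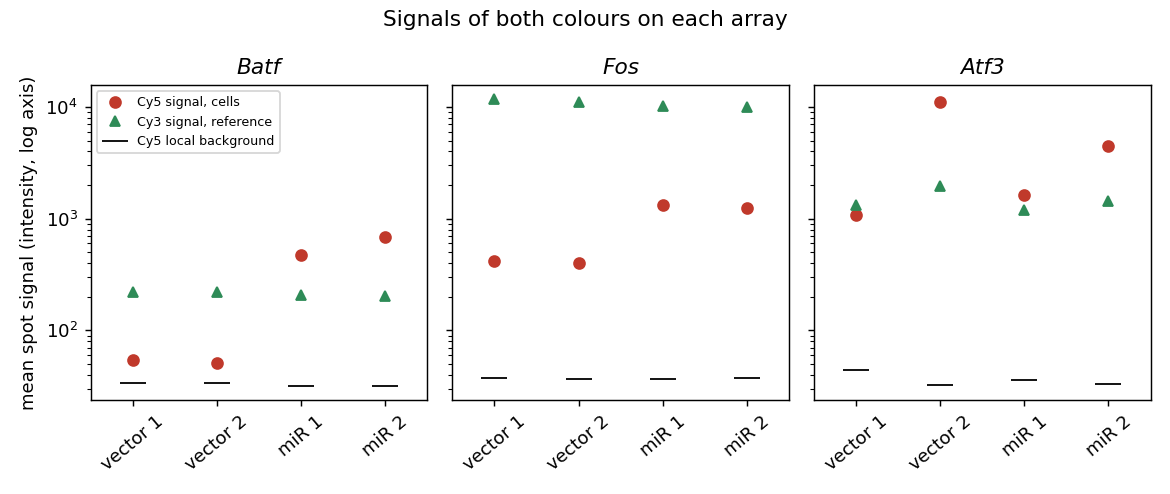
Mean spot signal of Batf, Fos and Atf3 on a log axis for each array, in Cy5 (cells), in Cy3 (reference) and as the local Cy5 background. The Cy5 signal of Batf is near its background in the vector cells and at 472 and 685 in the miR-23b/27b/24 cells, while that of Atf3 moves between arrays of the same group.

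The 3 Jun genes differed in the sign of their values, and none passed the test. Jun, the partner that every Fos protein can use, stood at -0.73 and -0.20 on the vector arrays and -0.02 and 0.43 on the miR-23b/27b/24 arrays. The groups did not overlap, but the gap within each group, 0.53 and 0.45, was close to the difference of 0.67 ± 0.25 (SE, 95% interval 0.02 to 1.32, adjusted p = 0.172). Jun is also printed on 10 spots per array, whose SD was between 0.022 and 0.036, so the gaps between arrays of a group far exceeded the error within an array. On mm7 the Jun probe lies on chromosome 4 from 94441779 to 94441838, that of Jund on chromosome 8 from 69154598 to 69154657, and that of Atf3 on chromosome 1 from 190724174 to 190724233.

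Jund, the Jun protein usually present without stimulation, had 0.75 and 1.58 on the vector arrays and -0.47 and 0.45 on the miR-23b/27b/24 arrays. The vector arrays were both higher, with a wide gap in each group (0.83 and 0.92). The difference was -1.17 ± 0.42 (SE, adjusted p = 0.156). Its Cy5 signal was 25640 and 32999 in the vector cells and 8744 and 16879 in the others, against a reference between 12769 and 14308. Without vector replicate 1 the difference was -1.59, and whether it was called in that fit, with a lone vector array, is not reported here. In the limma fit with the replicate number as a block it was -1.17 (adjusted p = 0.0237), though over all genes the numbers were not found to pair the arrays.

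Junb, which can restrain Jun at some promoters, was among the brightest spots and showed no saturated one in Cy5, while saturation in Cy3 was not examined. Its log2 ratios were -0.12 and 0.75 on the vector arrays and -0.13 and -0.10 on the miR-23b/27b/24 arrays, so vector replicate 1 lay with the miR-23b/27b/24 arrays and vector replicate 2 apart. The difference was -0.43 ± 0.30 (SE, 95% interval -1.22 to 0.35, adjusted p = 0.425). Without vector replicate 1 it was -0.87, and with vector replicate 2 left out it was 0.00071. The other Junb probe, which shares 22 bases with the first, gave -0.38 and 0.12 on the vector arrays, -0.59 and -0.50 on the others, and a difference of -0.42 ± 0.20 (SE, adjusted p = 0.247 in the fit over probes).

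**Figure D3:**
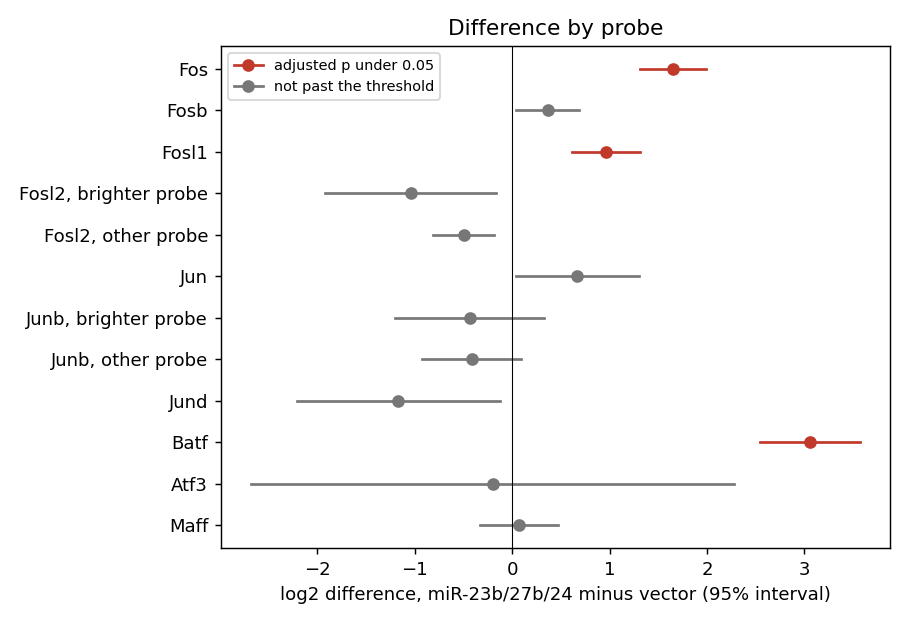
Difference in log2 ratio, miR-23b/27b/24 minus vector, for each of the 12 probes, with its 95% interval from limma. The intervals of Batf, Fos and Fosl1 lie above 0 and their adjusted p is under 0.05. Those of Fosb and Jun also lie above 0, and those of Jund and both Fosl2 probes below 0, with an adjusted p over 0.05. That of Atf3 runs from -2.68 to 2.28.

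Atf3, a stress-induced factor that forms dimers with Jun, varied more between arrays of a group than between groups. Its log2 ratios were -0.01 and 2.83 on the vector arrays and 0.63 and 1.79 on the miR-23b/27b/24 arrays. The vector arrays enclosed the others. They differed 7.12-fold, a gap exceeded by 4 of 20498 genes, and the miR-23b/27b/24 arrays differed 2.22-fold, a gap exceeded by 73 genes. The difference between groups was -0.20 ± 0.99 (SE, 95% interval -2.77 to 2.37, adjusted p = 0.923), an interval wide enough for a large change of either sign. Its sign turned without vector replicate 2 (1.22) and without miR-23b/27b/24 replicate 1 (0.38), while without vector replicate 1 it was -1.62. In Cy5 the Atf3 signal was 1077 and 11173 in the vector cells and 1623 and 4518 in the others. The reference channel, which holds the same RNA on each array, moved too, with 1324 and 1970 beside the vector cells and 1199 and 1427 beside the others; its highest value was 1.64 times its lowest, against 10.4 times in Cy5, and the part of that in the ratio was not tested.

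Other members shared the sign of this gap, though not its size. On vector replicate 2, 7 of the 10 members were higher than on vector replicate 1, against 48.4% of all genes, among them Fosl2, Junb and Jund. On miR-23b/27b/24 replicate 2, 9 members were higher than on replicate 1, against 49.7% of all genes. These counts take the sign alone: on the miR-23b/27b/24 arrays the gaps of Junb (0.029) and Fosl2 (0.095) lay below the median over all genes. Batf, Fos and Fosl1, the 3 that were called, had gaps between 0.12 and 0.17 on the vector arrays, below the median gap of 0.19 over all genes. On the miR-23b/27b/24 arrays their gaps were 0.48, 0.11 and 0.17, against a median of 0.13. A small gap within groups itself makes a call more likely. Maff, a small Maf protein that pairs with other leucine zipper factors, did not pass the test, and its groups overlapped. Its log2 ratios were 0.20 and 0.39 on the vector arrays and 0.24 and 0.49 on the miR-23b/27b/24 arrays. The difference was 0.07 ± 0.15 (SE, 95% interval -0.33 to 0.47, adjusted p = 0.822).

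Batf and Fos lie near each other on chromosome 12, and in the order of protein-coding genes of RefSeq (GRCm38.p6) only Jdp2 stands between them. Jdp2, a repressor that pairs with Jun, was lower on both arrays of cells with the cluster, with 0.56 and 1.07 on the vector arrays and -0.38 and -0.03 on the miR-23b/27b/24 arrays. Its difference was -1.02 ± 0.23 (SE, adjusted p = 0.0627). Of the 3 genes on the Fos side and the 3 on the Batf side, Ttll5 was called, 1.70-fold lower (adjusted p = 0.0311; of its 3 other kept probes 1 passed, and the others gave -0.33 and 0.06), and the differences of the other 5, Tmed10, Nek9, Zc2hc1c, Flvcr2 and Erg28, lay between -0.52 and 0.53.

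Genes around the family were read from lists, each set beside the 9.42% of all genes called, the 27.7% at an unadjusted p under 0.05 and the median of -0.03. Each gene stands for its brightest kept probe, and for genes named here other kept probes are given where their call differs. Of the 6 other AP-1 partners (Batf2, Batf3, Jdp2, Atf2, Atf7 and Creb5) 0 were called by limma, with 2 higher and 1 lower at an unadjusted p under 0.05 and a median of 0.04. Batf3, the paralog of Batf in dendritic cells, had -0.15 and 0.46 on the vector arrays and 1.00 and 1.23 on the others, a difference of 0.96 ± 0.24 (SE, adjusted p = 0.0774). Of 12 Maf and NF-E2 genes 10 were tested and 0 called (0 higher and 2 lower at an unadjusted p under 0.05, median -0.03). Dimmer probes of 3 of them passed in the fit over probes: Maf with 1.28 (adjusted p = 0.0192), Nfe2l2 with 1.05 (adjusted p = 0.034) and Nfe2l3 with -1.84 (adjusted p = 0.0241), while their brightest probes gave 0.02, -0.25 and -0.07. Of 12 CREB, ATF and C/EBP genes 1 fell, Atf6, a sensor of stress in the endoplasmic reticulum, 1.70-fold lower (adjusted p = 0.0331; not called with backgrounds kept as measured, and -0.24 by its other probe, which did not pass). Ddit3, which encodes the stress factor CHOP, had 0.12 and 1.70 on the vector arrays and -1.43 and -1.28 on the others, and its difference of -2.26 ± 0.53 (SE, adjusted p = 0.0661) did not pass.

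Among 25 genes of the MAP kinase cascades, which drive Fos and Jun, 3 rose and 0 fell by limma, with 7 higher and 2 lower at an unadjusted p under 0.05 and a median of 0.26. Map2k6, a kinase that activates p38, was 4.20-fold higher, with -1.33 and -1.32 on the vector arrays and 0.37 and 1.12 on the miR-23b/27b/24 arrays (adjusted p = 0.0193). Its other kept probes gave 1.03 (adjusted p = 0.0679) and -0.02 (adjusted p = 0.934) in the fit over probes. Map2k3, its relative, was 2.13-fold higher (adjusted p = 0.0205). Mapk8, which encodes the Jun kinase JNK1, was 2.67-fold higher, with -1.89 and -2.0 on the vector arrays and -0.27 and -0.79 on the others (adjusted p = 0.0253). Its other kept probes gave 0.79 (adjusted p = 0.0394) and 0.03 (adjusted p = 0.898), so the probes of Map2k6 and of Mapk8 disagree. With backgrounds kept as measured 0 of the 25 were called, and the values of Map2k6 and Mapk8 were 1.43 and 0.74. Without vector replicate 1, 5 rose, where 22.4% of all genes were called; without miR-23b/27b/24 replicate 1, 1 rose, and without replicate 2 of that group none did. Of 6 tested activators of the Fos promoter, such as Srf, 0 were called, with 1 higher and 0 lower at an unadjusted p under 0.05. Of 8 genes for Jun and Fos turnover and cofactors 0 were called, with 5 higher and 0 lower at that level.

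Genes published as AP-1 targets went both ways: of 27 tested, 4 rose and 5 fell, with a median of -0.20. Among those that fell, Mmp13, a collagenase, was 19.7-fold lower, Mmp9, a gelatinase, 4.93-fold (0.25 and 0.79 on the vector arrays, -1.73 and -1.84 on the others), Ptgs2, the inducible cyclooxygenase, 3.87-fold, and Hbegf, a growth factor of the EGF family, 1.99-fold. Those that rose were Ccnd1, the G1 cyclin D1, 3.58-fold higher (adjusted p = 0.0159), Clu, 2.07-fold, Plaur, the urokinase receptor, 1.89-fold, and Dusp1, a phosphatase of MAP kinases, 1.75-fold. The vector arrays of Mmp13 stood at 3.88 and 2.47, and leaving out the first of them gave -3.59. With backgrounds kept as measured 1 rose (Ccnd1) and 3 fell, Mmp13 and Mmp9 among them. Ptgs2, Hbegf, Clu, Plaur and Dusp1 were not called in that setting (limma, adjusted p between 0.0529 and 0.0817). Without vector replicate 1 the counts were 7 and 8 (all genes 22.4%), without vector replicate 2 they were 6 and 11 (all genes 13.3%), without miR-23b/27b/24 replicate 1 they were 0 and 1, and without replicate 2 of that group none was called.

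**Figure D4:**
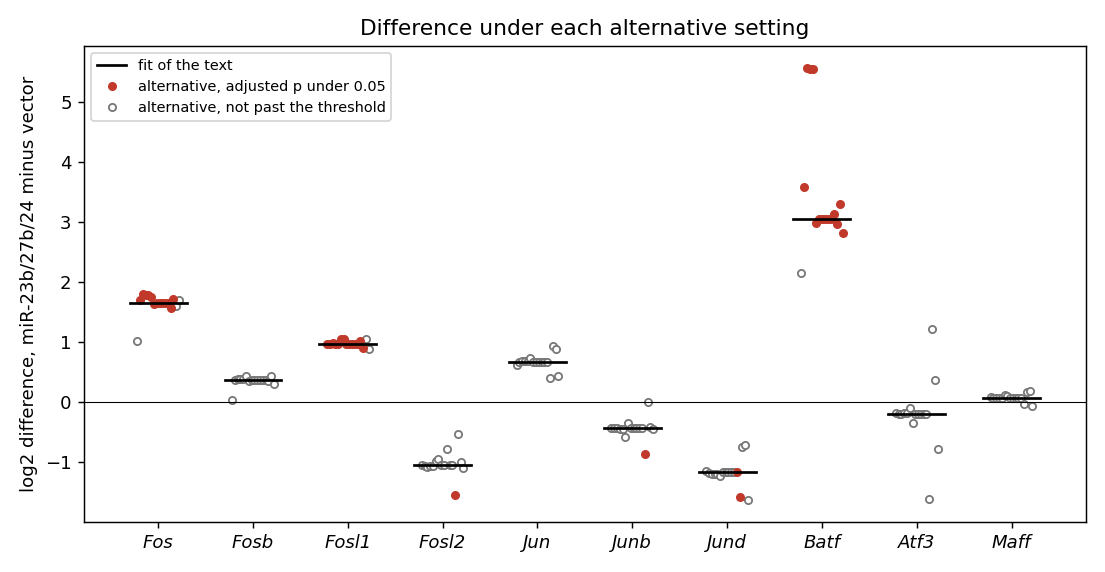
Difference in log2 ratio of each member under the alternative settings (points, filled where the adjusted p is under 0.05), with the value of the text as a bar. Fosl1 stays between 0.88 and 1.06, Batf ranges from 2.16 to 5.58, and Atf3 has values on both sides of 0.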

How the data were processed

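Per the submitters' processing notes, arrays were read with Agilent Feature Extraction 9.5.3.1. Per the file headers, each deposited file gives mean signals and local backgrounds as intensity, a processed intensity, and a log10 ratio of Cy5 over Cy3. The deposited table of the authors holds log2 ratios centred per probe in the direction Cy5 over Cy3.

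In R 4.3.3 with limma 3.58.1, local backgrounds marked as outliers (1782 to 1976 spots per array in Cy5) were replaced by the array median, normexp with an offset of 50 and loess followed, control and outlier spots were dropped, and the spots of each probe averaged. This replacement was chosen in earlier work with its results known. A probe was kept where Cy5 was well above background on the 2 arrays of at least 1 group (30073 probes), genes were represented by their probe of highest mean intensity, and limma's lmFit and eBayes gave the tests, with 2 residual degrees of freedom and Benjamini-Hochberg adjustment. Symbols came from a RefSeq table by accession for 22951 of 41174 probes, by symbol for 6659 and by synonym for 3109, and 8455 kept the name in the file. The fit was run on simulated data with planted changes as a check of the code, which does not test the calls made here. The members, gene lists, tests and alternatives were chosen with earlier results of these data known. The text names all 10 members, up to 4 called genes of each list by size of change (Hbegf, Clu, Plaur and Dusp1 were added, and some genes of the lists are not reported here), Aopep, markers, and, chosen after their values were seen, the neighbours of Fos and Batf and the uncalled genes Batf3, Jdp2, Irf8, Irf4, Cd3g, Ddit3, Maf, Nfe2l2 and Nfe2l3.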

Additional observations from a re-analysis of the deposited data

How the results depend on the processing

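With every local background as measured, 635 genes (267 higher, 368 lower), 1 member (Fosl1) and 887 probes passed, against 1931 genes, 3 members and 2962 probes in the text; median centring in place of loess left 1263 genes. Leaving out 1 array gave between 214 and 4584 genes, between 1 and 6 members and between 252 and 6865 probes, where the lone array left takes its spread from the other group. The fit with a replicate block called 1762 genes, 3281 probes and 4 members, Jund among them. Over all genes the replicate numbers did not pair the arrays (correlation of the deviations 0.05), and a pairing limited to some genes was not tested. With 1 array left out, values on both sides of 0 were seen for Maff (-0.057 to 0.20), Junb (-0.87 to 0.00071) and Atf3 (-1.62 to 1.22); those of turned sign were not called. The cause of these shifts was not tested. Batf was called in 14 of 15 settings, Fos in 13 of 16 and Fosl1 in 14 of 16, all with 1 sign; Batf has no value where a probe must be well above background in Cy5 on all 4 arrays. Signal over background limits Batf in the vector cells.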
